A study of Rattus norvegicus with 6 samples.

Results

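The genes described here are 8 genes of fatty acid oxidation and its control (Cpt1a, Cpt1b, Acadm, Acadl, Acadvl, Hadha, Ehhadh and Pdk4), taken by symbol from the 30562 genes of a read count table of rat intervertebral disc. The label under which they were grouped also names ketogenesis, but none of the 8 encodes an enzyme of ketone body synthesis, so ketone body genes are given from a separate list. Disc degeneration was induced in 12-week-old male Sprague-Dawley rats by puncturing the Co6 to Co7 tail disc with an 18 G needle. One group then received AF-PTK@LEV@SPP1, a hybrid of liposomes and bacterial outer membrane vesicles that carries an siRNA described as directed against mouse Spp1 and displays a peptide that binds the annulus fibrosus, held by a thioketal linker that reactive oxygen species cut. The other group, named PBS here after the study's methods, had the same puncture and is called untreated in the labels. The methods give injections begun 24 h after surgery and sequencing of 3 animals a group, and the study describes treatment over 8 weeks, whereas the labels give 14 days. The labels also describe macrophages sorted from mice, whereas the methods describe whole disc tissue of rats.

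Each group had 3 libraries, with 15560728 to 17942989 reads counted on genes. PBS replicates 2 and 3 stood apart from every other pair within a group. Their counts varied 1.33 times as much as sampling noise, and 0.111% of 14393 genes differed between them, against 51.3 to 107 times for the other pairs. They were therefore summed and counted as 1 sample, which left 5 distinct samples, 2 of PBS and 3 of AF-PTK@LEV@SPP1. Levels are normalized CPM, reads scaled to a common library size by edgeR's trimmed mean of M-values. They are compared between libraries and not between genes, since read counts were not set against transcript length. The siRNA target Spp1 had 8123, 4411 and 4417 CPM in PBS replicates 1, 2 and 3, and 8054, 6903 and 8461 CPM in replicates 1, 2 and 3 of the discs labelled AF-PTK@LEV@SPP1. Its level there did not fall below that of PBS (log2 fold change 0.31, edgeR adjusted p = 0.628, and a log2 fold change of 0.81 without PBS replicate 1), and directions below refer to libraries as labelled. As for the labelled sort, 10 macrophage markers summed to 438.9 to 1309 CPM. The disc collagen genes Col1a1 and Col2a1 were at least 31920 and 13873 CPM in each of the 6 libraries. These levels take no account of transcript length, and which material was sequenced was not tested.

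Long-chain fatty acids enter mitochondria as carnitine esters made by carnitine palmitoyltransferase 1, which malonyl-CoA inhibits. Acyl-CoA dehydrogenases matched to chain length then start each round of β-oxidation, and the trifunctional protein carries out the later steps for long chains. Peroxisomes shorten very long, branched and dicarboxylic chains with enzymes of their own. Pyruvate dehydrogenase kinase 4 switches off pyruvate dehydrogenase and so spares glucose while fat is burned. The disc is poorly supplied with blood, and its cells rely largely on glycolysis.

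None of the 8 genes passed edgeR's quasi-likelihood test at an adjusted p under 0.05 over the 15537 genes tested, where 1.13% of all genes passed as higher with AF-PTK@LEV@SPP1 and 2.57% as lower. All 8 passed the filter on low counts. At an unadjusted p under 0.05 the count was 1 of 8, Ehhadh, against 25.4% of all genes, the share to set beside each unadjusted count below. DESeq2 called 1 of 8 higher, also Ehhadh, against 7.29% of all genes higher and 9.27% lower. With the 6 libraries kept apart, edgeR likewise called Ehhadh alone, against 8.2% of all genes higher and 9.93% lower. The median log2 fold change was 0.20 over the 8 genes and 0.05 over all genes tested. Over the distinct samples, 3 of the 8 lay higher without overlap (Ehhadh, Acadm and Acadvl) and 1 lower (Cpt1a), beside 23.9% and 21.9% of all genes.

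**Figure D1:**
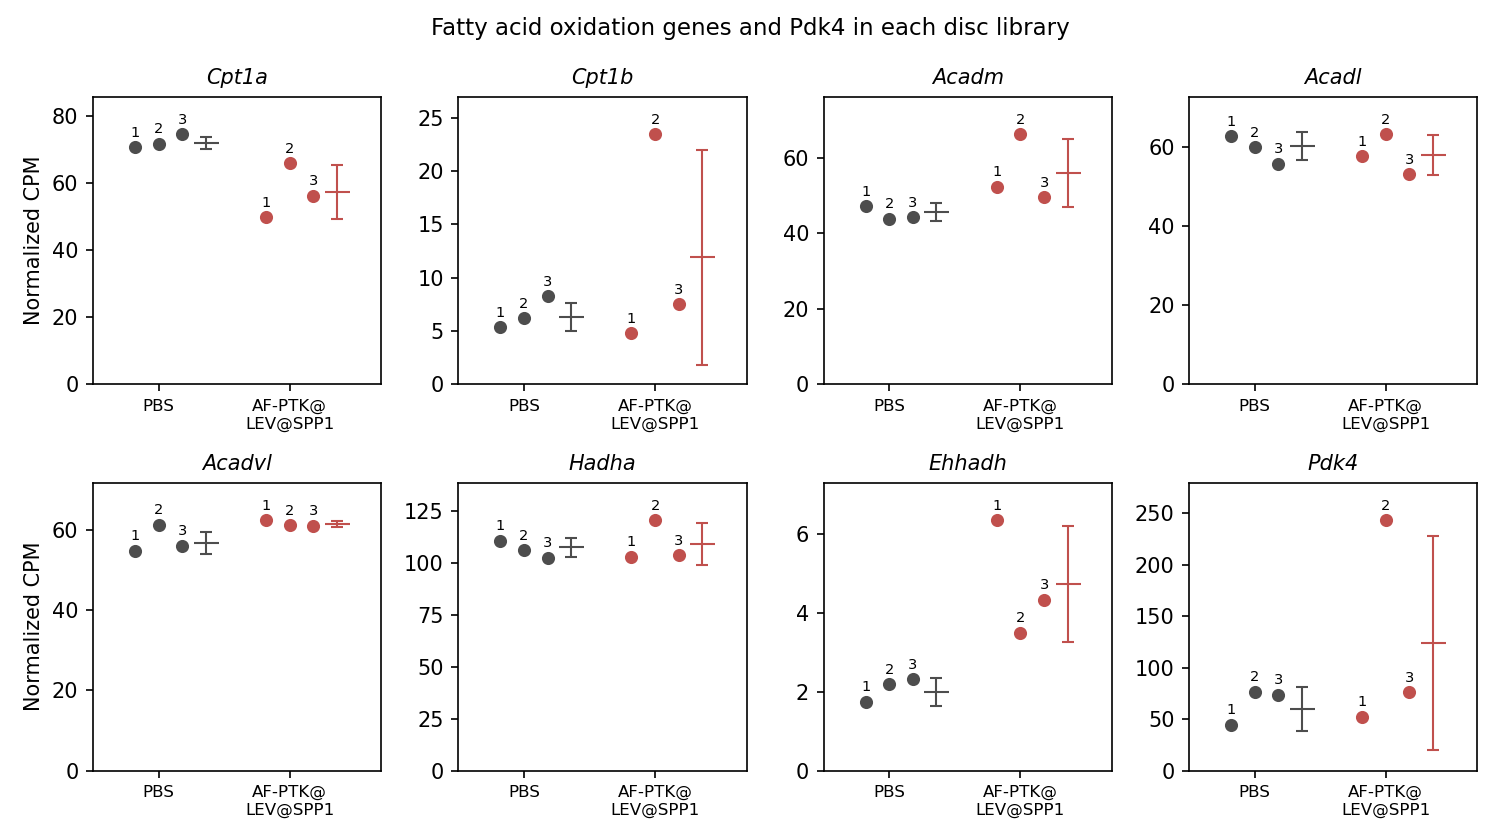
Normalized CPM (vertical axes, from 0) of the 8 genes in each library, numbered by replicate, for PBS (grey) and AF-PTK@LEV@SPP1 (red). Bars give the mean and SD over distinct samples, with PBS replicates 2 and 3 averaged into 1. Pdk4 and Cpt1b were highest in AF-PTK@LEV@SPP1 replicate 2, at 243.2 and 23.5 CPM, while Ehhadh was at least 3.50 CPM in all 3 red libraries and at most 2.32 CPM in PBS.

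Entry into mitochondria was represented among the 8 genes by the CPT1 isoforms Cpt1a and Cpt1b. Cpt1a (ENSRNOG00000014254, chromosome 1, 200565613 to 200627055 in the deposited coordinates, whose build is not given), the widely expressed isoform, had 70.7, 71.7 and 74.6 CPM in PBS replicates 1 to 3. Discs labelled AF-PTK@LEV@SPP1 had 49.8, 65.8 and 56.2 CPM. Each of these lay under each PBS library, with means of 57.3 ± 8.07 (SD, n = 3) and 71.9 ± 1.76 (SD, n = 2 distinct samples). The log2 fold change of -0.34 (95% interval -0.70 to 0.03) missed the threshold in edgeR (adjusted p = 0.220).

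Cpt1b (ENSRNOG00000010438, chromosome 7, 120491354 to 120500404), the isoform of skeletal and heart muscle, had 5.34, 6.18 and 8.24 CPM in PBS and 4.76, 23.5 and 7.52 CPM in AF-PTK@LEV@SPP1 replicates 1 to 3. One library carried the difference, since AF-PTK@LEV@SPP1 replicate 2 was 2.85 times the next highest library and the other libraries overlapped. The log2 fold change was 0.91 (95% interval -0.91 to 2.73, edgeR adjusted p = 0.469) and -0.04 without that library. Reads of Cpt1a per read of Cpt1b, a ratio compared only between libraries, were 13.2, 11.6 and 9.05 in PBS and 10.5, 2.80 and 7.47 in AF-PTK@LEV@SPP1. Of the 8 carnitine shuttle genes, 0 passed edgeR's test in either direction and 0 had an unadjusted p under 0.05. DESeq2 also called 0, and the median log2 fold change was -0.12.

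The acyl-CoA dehydrogenases differed little between groups. Acadm (ENSRNOG00000009845, chromosome 2, 242858865 to 242883147), the medium-chain enzyme, had 47.2, 43.8 and 44.2 CPM in PBS and 52.3, 66.2 and 49.5 CPM in AF-PTK@LEV@SPP1. All 3 AF-PTK@LEV@SPP1 libraries lay above the PBS libraries, though the log2 fold change of 0.29 (95% interval -0.11 to 0.69) did not pass edgeR's test (adjusted p = 0.313) and was 0.15 without AF-PTK@LEV@SPP1 replicate 2. Acadl (ENSRNOG00000012966, chromosome 9, 68333980 to 68372220), the long-chain enzyme, ranged from 55.8 to 62.7 CPM in PBS and from 53.1 to 63.3 CPM in AF-PTK@LEV@SPP1, and the groups overlapped. Acadvl (ENSRNOG00000018114, chromosome 10, 54732469 to 54738075), the very long-chain enzyme of the inner membrane, ranged from 54.8 to 61.3 CPM in PBS and from 61.1 to 62.4 CPM in AF-PTK@LEV@SPP1. The PBS range reached into that of AF-PTK@LEV@SPP1 through replicate 2, although the mean of the PBS pair lay below it. Acadvl shares 352 bases with Dvl2 on the opposite strand, and the strand setting of the read counting is not given, so its level is uncertain to that extent. Of 9 dehydrogenase and electron transfer flavoprotein genes tested, 0 passed edgeR's test, 0 had an unadjusted p under 0.05 and DESeq2 called 0. All 9 log2 fold changes lay between -0.22 and 0.29.

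Hadha (ENSRNOG00000024629, chromosome 6, 26187956 to 26227869), the α subunit of the trifunctional protein, had 110.7, 106.2 and 102.6 CPM in PBS and 103.1, 120.7 and 103.7 CPM in AF-PTK@LEV@SPP1. The groups overlapped, and the log2 fold change of 0.01 had a 95% interval of -0.30 to 0.32 (edgeR adjusted p = 0.956). Hadhb, which encodes the β subunit, lies 3086 bases away on the opposite strand and had a log2 fold change of 0.07 (edgeR adjusted p = 0.813), or -0.04 without AF-PTK@LEV@SPP1 replicate 2. Of the 8 genes of later mitochondrial steps, 0 passed edgeR's test, 2 had an unadjusted p under 0.05 and DESeq2 called 0, so the unadjusted count was at the share of all genes. Eci1, an enoyl-CoA isomerase for unsaturated chains, had the largest log2 fold change of this list, at 0.41 (edgeR adjusted p = 0.181). Acaa2, the mitochondrial thiolase, named after its values were seen, had an edgeR adjusted p of 0.148 that became 0.047 with the 6 libraries kept apart.

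Ehhadh (ENSRNOG00000001770, chromosome 11, 79241938 to 79275188), the peroxisomal bifunctional enzyme, had the largest log2 fold change of the 8 genes. It had 1.75, 2.19 and 2.32 CPM in PBS, from 34, 34 and 38 reads, and 6.35, 3.50 and 4.33 CPM in AF-PTK@LEV@SPP1, from 108, 58 and 76 reads. All 3 AF-PTK@LEV@SPP1 libraries were higher than each PBS library, with means of 4.73 ± 1.47 (SD, n = 3) and 2.00 ± 0.359 (SD, n = 2 distinct samples). The log2 fold change was 1.22 with a standard error of 0.36 (95% interval 0.32 to 2.13). Its edgeR adjusted p was 0.122 over the distinct samples and 0.039 with the 6 libraries kept apart, and DESeq2 gave 0.040, so the call rested on the tool and on how the PBS pair was counted. Leaving out single libraries gave log2 fold changes from 0.92 without AF-PTK@LEV@SPP1 replicate 1, its highest library, to 1.40 without AF-PTK@LEV@SPP1 replicate 2.

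Among 15 peroxisomal genes tested, Phyh rose, and it was the 1 gene to pass edgeR's test among the 40 genes tested of 44 listed for the carnitine shuttle, dehydrogenase, later mitochondrial and peroxisomal steps. Phyh encodes phytanoyl-CoA hydroxylase, which starts the breakdown of branched chains by α-oxidation, a step before β-oxidation. It had 54.9, 50.8 and 51.0 CPM in PBS and 87.5, 98.2 and 82.9 CPM in AF-PTK@LEV@SPP1. The groups were well apart, and the log2 fold change was 0.75 with a standard error of 0.12 (edgeR adjusted p = 0.044). The adjusted p was 0.00591 with the 6 libraries kept apart and 2.1e-05 by DESeq2, and the log2 fold change stayed between 0.68 and 0.81 in every alternative run. The call was close to the threshold and was lost without PBS replicate 1 (edgeR adjusted p = 0.102) and without AF-PTK@LEV@SPP1 replicate 1, 2 or 3 (0.085, 0.103 and 0.158), as it was without the filter on low counts (0.052). The median log2 fold change was 0.15 over the peroxisomal genes and 0.09 over the 40 genes, against 0.05 over all genes. Abcd2, a peroxisomal transporter of very long-chain acyl-CoA named after its values were seen, had 8.32, 1.42 and 1.65 CPM in PBS and 22.0, 32.3 and 16.6 CPM in AF-PTK@LEV@SPP1. PBS replicate 1 lay between the PBS pair and AF-PTK@LEV@SPP1, and edgeR's adjusted p was 0.151, against 0.015 by DESeq2. Its log2 fold change of 2.28 was 3.92 without PBS replicate 1. Acox2 and Acaa1b had too few reads to be tested, and Acad10 and Decr2 are not analysed here.

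**Figure D2:**
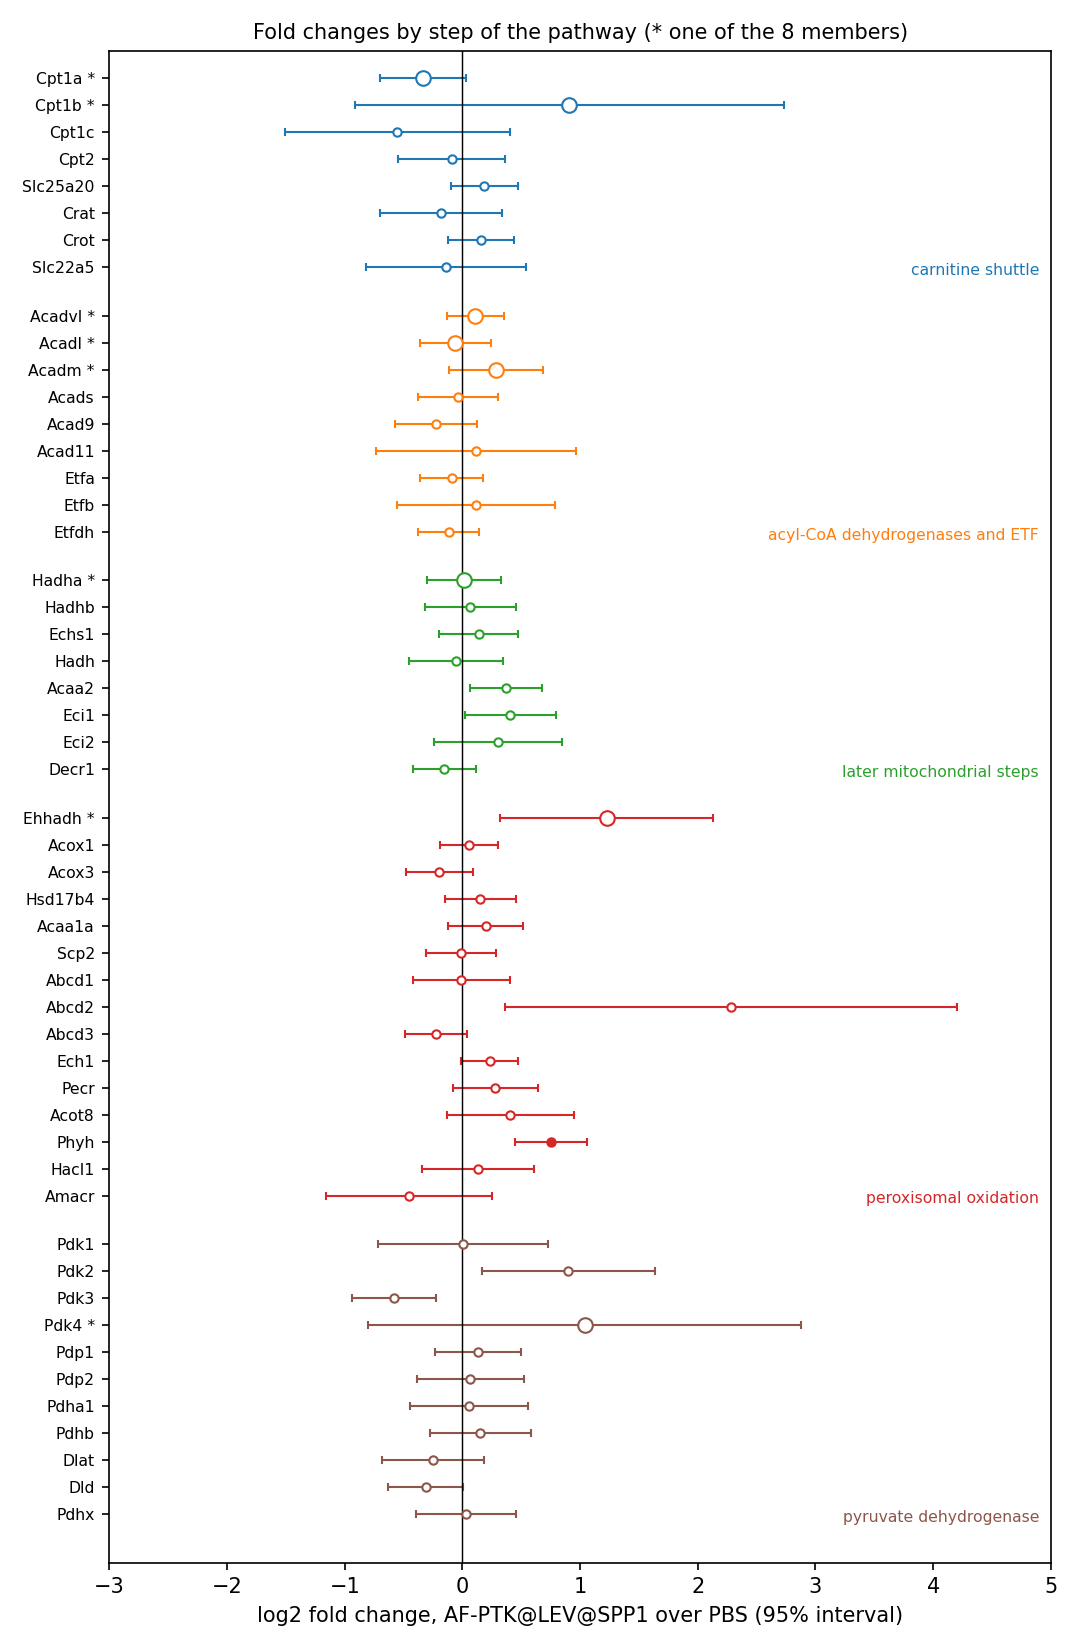
Log2 fold change of AF-PTK@LEV@SPP1 over PBS (horizontal axis, points) with its 95% interval (bars) from edgeR for each tested gene of 5 lists, coloured by list. Filled points passed at an adjusted p under 0.05, which Phyh alone did, and larger points marked * are the genes of the 8. The dehydrogenases lie between -0.22 and 0.29, whereas Abcd2 lies at 2.28.

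Ketone body genes are given for Bdh1, Acat1 and Oxct1. Bdh1, which interconverts the ketone bodies, had 15.6, 7.72 and 8.61 CPM in PBS and 4.29, 8.81 and 10.9 CPM in AF-PTK@LEV@SPP1, and the groups overlapped (log2 fold change -0.57, edgeR adjusted p = 0.485). PBS replicate 1 carried that value, which was -0.05 without it. Acat1, a mitochondrial thiolase, had 52.3, 38.2 and 39.3 CPM in PBS and 49.7, 53.0 and 44.5 CPM in AF-PTK@LEV@SPP1 (log2 fold change 0.10 or 0.32 without PBS replicate 1, edgeR adjusted p = 0.737 with all libraries). Oxct1, which activates acetoacetate for use, had 118.2, 114.8 and 119.9 CPM in PBS and 108.4, 111.3 and 87.0 CPM in AF-PTK@LEV@SPP1. The Oxct1 levels of AF-PTK@LEV@SPP1 lay under those of PBS, with a log2 fold change of -0.21 that did not pass edgeR's test (adjusted p = 0.399) and was -0.10 without AF-PTK@LEV@SPP1 replicate 3. Of these 3 genes, 0 passed edgeR's test, 0 had an unadjusted p under 0.05 and DESeq2 called 0.

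Pdk4 (ENSRNOG00000009565, chromosome 4, 33589799 to 33601850) had 44.5, 76.7 and 73.7 CPM in PBS and 52.2, 243.2 and 76.3 CPM in AF-PTK@LEV@SPP1. As with Cpt1b, AF-PTK@LEV@SPP1 replicate 2 stood alone, at 3.17 times the next highest library, and the others overlapped. The log2 fold change of 1.04 (95% interval -0.80 to 2.88, edgeR adjusted p = 0.415) became 0.10 without that library. Of 11 genes of the pyruvate dehydrogenase complex and its kinases and phosphatases, 0 passed edgeR's test, 2 had an unadjusted p under 0.05 and DESeq2 called 1 lower, which is under the share of all genes for the unadjusted count. Those with an unadjusted p under 0.05 were other kinase isoforms, named after their values were seen. Pdk2 had 13.7, 10.9 and 12.2 CPM in PBS and 21.6, 32.1 and 17.5 CPM in AF-PTK@LEV@SPP1 (edgeR adjusted p = 0.143). Pdk3 had 57.6, 75.9 and 69.8 CPM in PBS and 42.5, 41.9 and 47.2 CPM in AF-PTK@LEV@SPP1 (edgeR adjusted p = 0.090). With the 6 libraries kept apart, edgeR's adjusted p was 0.043 for Pdk2 and 0.022 for Pdk3.

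The controls of the pathway did not pass either. Acacb, the acetyl-CoA carboxylase whose malonyl-CoA inhibits CPT1, had the largest log2 fold change of 3 malonyl-CoA genes, at 0.99 (edgeR adjusted p = 0.220). It had 5.08, 5.15 and 5.56 CPM in PBS and 6.29, 16.05 and 9.12 CPM in AF-PTK@LEV@SPP1, highest in replicate 2, without which the log2 fold change was 0.56. Among the 3, 0 had an unadjusted p under 0.05 and DESeq2 called 0. Of 6 regulators tested, 0 passed edgeR's test, 1 had an unadjusted p under 0.05 and DESeq2 called 1, each time Lpin1. Lpin1, a phosphatidate phosphatase that also acts as a coactivator, had 14.6, 9.78 and 11.4 CPM in PBS and 29.2, 41.0 and 23.4 CPM in AF-PTK@LEV@SPP1 (log2 fold change 1.30, edgeR adjusted p = 0.079, and 0.018 with the 6 libraries kept apart). Of 16 citric acid cycle genes, which take up the acetyl-CoA that β-oxidation releases, edgeR and DESeq2 called 0 and 0 had an unadjusted p under 0.05. Their median log2 fold change was -0.09, and Dlst, a subunit of the oxoglutarate dehydrogenase complex, had the largest at -0.31 (edgeR adjusted p = 0.275), or -0.16 without PBS replicate 1.

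Markers of other cell types moved with several of these genes, and fewer cells of a type and less RNA per cell cannot be told apart in bulk tissue. For Pdk4 and Cpt1b, the 12 skeletal muscle markers measured summed to 1182, 1550 and 1565 CPM in PBS and 1144, 12299 and 3106 CPM in AF-PTK@LEV@SPP1, with the highest sum in the same replicate 2. Acta1, which had the highest mean CPM of the list over the 6 libraries, though Myh4 was higher in each PBS library, had 3222 CPM in that library and 285.7 to 818.1 CPM in the others, and 0 of the 12 passed edgeR's test, while 1 had an unadjusted p under 0.05 and DESeq2 called 1. Erythroid markers, 6 in all and led by Slc4a1 (led here means the highest mean CPM over libraries, with no account of transcript length), also summed highest there, at 1688 CPM, against 36.8 to 782.6 CPM elsewhere, and edgeR called 0 of them, with 1 under an unadjusted p of 0.05 and 1 called by DESeq2. For Abcd2, Phyh and Lpin1, the 10 adipocyte markers summed to 572.5, 112.3 and 117.3 CPM in PBS and 1289, 2045 and 934.7 CPM in AF-PTK@LEV@SPP1. All 10 were higher in AF-PTK@LEV@SPP1 without overlap (23.9% of all genes), 0 passed edgeR's test, 7 had an unadjusted p under 0.05 (25.4% of all genes in either direction) and DESeq2 called 7 higher (7.29% of all genes). Ehhadh also differed between groups in that direction. Within each group its level was lowest in PBS replicate 1 and AF-PTK@LEV@SPP1 replicate 2, where the adipocyte sum was highest. The PBS order rested on 34, 34 and 38 reads of Ehhadh, and a link with these markers was not tested. Fabp4, which led the list, had 238.8, 47.3 and 52.5 CPM in PBS and 544.0, 757.0 and 397.8 CPM in AF-PTK@LEV@SPP1. Of 5 brown adipocyte markers, led by Dio2, Ucp1 had at most 4 reads and Elovl3 at most 2 in a library. Of the 3 tested, 0 passed edgeR's test, 1 had an unadjusted p under 0.05 and DESeq2 called 1. The log2 fold change was 0.12 for Dio2 (0.61 without PBS replicate 1 and 0.01 without AF-PTK@LEV@SPP1 replicate 3) and 0.68 for Cidea (1.35 without PBS replicate 1 and 0.07 without AF-PTK@LEV@SPP1 replicate 2). Prdm16, named after its values were seen, had a log2 fold change of 1.20, with 1.80, 1.29 and 1.71 CPM in PBS and 4.35, 3.74 and 3.36 CPM in AF-PTK@LEV@SPP1 (adjusted p = 0.081 in edgeR, 0.020 with the 6 libraries kept apart and 0.00845 by DESeq2). The 5 summed to 53.5, 27.7 and 30.5 CPM in PBS and 37.7, 57.9 and 51.4 CPM in AF-PTK@LEV@SPP1. The 7 nucleus pulposus and notochord markers measured, led by Cd24, summed to 835.4, 405.4 and 398.7 CPM in PBS and 4278, 1538 and 1827 CPM in AF-PTK@LEV@SPP1. Within AF-PTK@LEV@SPP1 the sum was highest in replicate 1, where Ehhadh was highest. Within PBS it was also highest in replicate 1, where Ehhadh was lowest. Of the 7, 6 had positive log2 fold changes and Car12 a negative one of -1.17 (adjusted p = 0.056 in edgeR, 0.011 with the 6 libraries kept apart). edgeR called 0 over the distinct samples, 5 had an unadjusted p under 0.05, and DESeq2 called 4 higher and 1 lower, Car12. The part of these cell types in the results was not tested.

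The 10 macrophage markers, led by Mrc1, summed to 1309, 863.0 and 859.5 CPM in PBS and 438.9, 729.3 and 589.3 CPM in AF-PTK@LEV@SPP1. Of the 10, 9 had negative log2 fold changes and 1 a positive one. An unadjusted p under 0.05 was found for 4, and DESeq2 called 4 lower (9.27% of all genes). edgeR called 2 lower (2.57% of all genes), Cd68 and Cd14 (log2 fold changes -1.97 and -1.89, adjusted p = 0.023 and 0.012). Neither passed without AF-PTK@LEV@SPP1 replicate 2 or 3, nor did Cd68 without AF-PTK@LEV@SPP1 replicate 1 or PBS replicate 1. Neutrophil markers, 8 in all and led by S100a9, summed to 1055, 181.0 and 170.9 CPM in PBS and 263.2, 2486 and 3503 CPM in AF-PTK@LEV@SPP1, with Ltf at no more than 1 read. Of the 7 tested, edgeR and DESeq2 called 0, and 0 had an unadjusted p under 0.05. Endothelial markers summed to 498.5, 601.1 and 584.9 CPM in PBS and 375.4, 437.9 and 434.6 CPM in AF-PTK@LEV@SPP1, led by Pecam1, and of these 6 genes edgeR called 0, 3 had an unadjusted p under 0.05 and DESeq2 called 2 lower. Osteoblast markers, led by Ibsp, summed to 4588 CPM in PBS replicate 1 and 1800 to 3117 CPM in the other libraries, and of these 6 genes edgeR and DESeq2 called 0, with 0 under an unadjusted p of 0.05. Annulus fibrosus and chondrocyte markers, led by Col1a1 and Col2a1, had median log2 fold changes of 0.48 and -0.29, and edgeR called 0 genes of either list, while 1 and 2 genes had an unadjusted p under 0.05 and DESeq2 called 1 of each list.

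**Figure D3:**
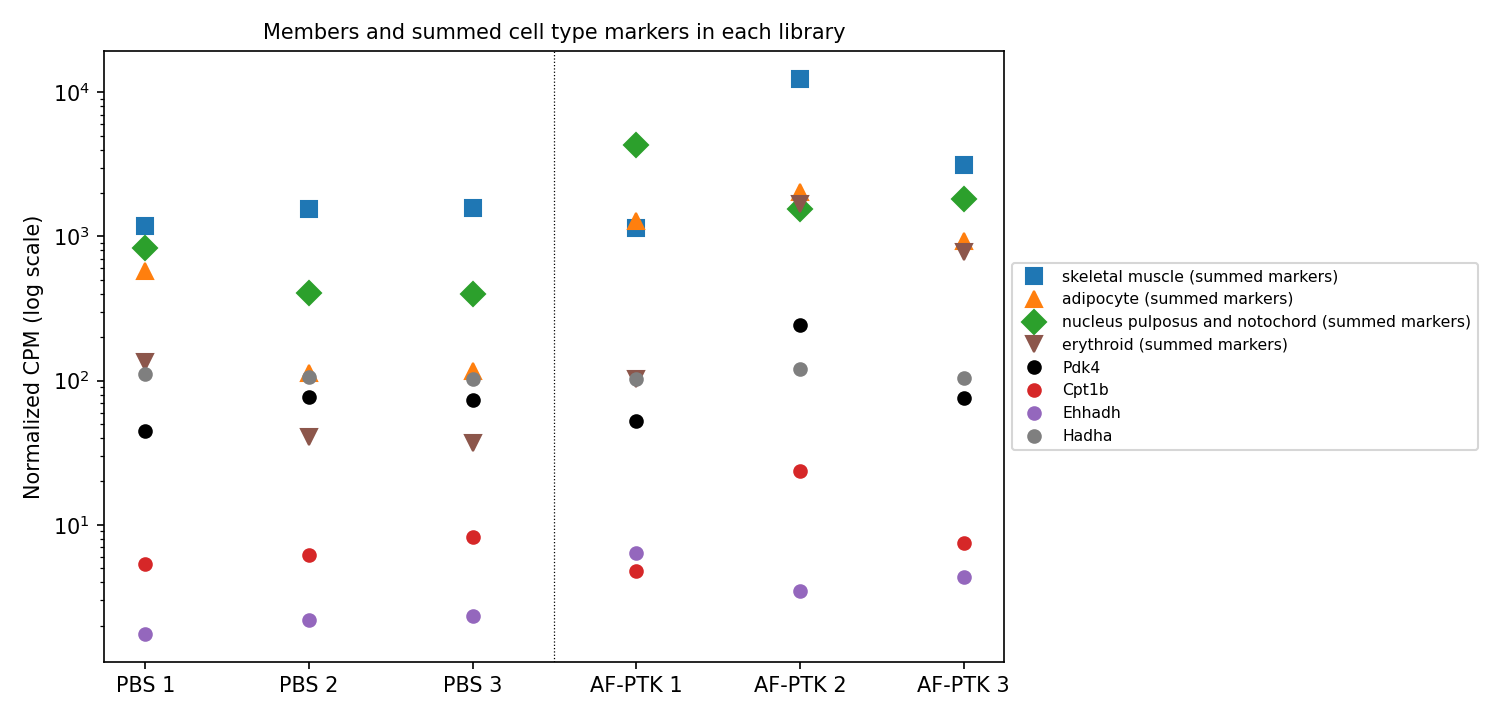
Normalized CPM on a log axis (vertical) in each library (horizontal) for Pdk4, Cpt1b, Ehhadh and Hadha (circles) and for the summed markers of 4 cell types (other symbols). Skeletal muscle markers, Pdk4 and Cpt1b were each highest in AF-PTK@LEV@SPP1 replicate 2, at 12299, 243.2 and 23.5 CPM.

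The genes most like Pdk4 and Cpt1b were found by the root mean square difference of centred log2 CPM over the 5 distinct samples, among 10053 genes. For Pdk4 they were Myom3, Sh3bgr and Tpm2, at 0.098, 0.134 and 0.167, where the profile of Pdk4 itself had a size of 0.857. For Cpt1b they were Sh3bgr, Myom3 and Myo18b, at 0.124, 0.133 and 0.172. Myom3 and Tpm2 encode proteins of the muscle sarcomere, and Myom3 had 51.9 CPM in AF-PTK@LEV@SPP1 replicate 2 against 10.7 to 17.8 CPM in the other libraries. The mean profile of the 8 genes was near those of Ushbp1 and Abcb6, at 0.036 and 0.066.

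Genes of this pathway are known targets of PPARα, which binds a pair of AGGTCA motifs in the same orientation 1 base apart. RefSeq promoters (build GRCr8) matched 6 of the 8 genes by symbol, all but Cpt1b and Acadl. AGGTCA was searched on both strands in the 250 bases before the gene start, where 14.1% of 33469 promoters held it. Of the 6 matched genes 1 held it, Acadvl, with a copy 169 and a copy 17 bases before the start, and 1.27% of promoters held at least 2. The promoter of Acadvl is shown for these copies, in capitals, and that of Ehhadh, the gene with the largest fold change, for comparison, with no copy. They lie at chr10:55236706-55236955 and chr11:92746159-92746408, on the minus and the plus strand.
Acadvl: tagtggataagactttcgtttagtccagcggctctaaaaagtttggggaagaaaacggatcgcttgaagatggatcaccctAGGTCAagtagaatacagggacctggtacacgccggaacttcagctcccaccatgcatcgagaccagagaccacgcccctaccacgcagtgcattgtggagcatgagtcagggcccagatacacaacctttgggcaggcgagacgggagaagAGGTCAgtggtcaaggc
Ehhadh: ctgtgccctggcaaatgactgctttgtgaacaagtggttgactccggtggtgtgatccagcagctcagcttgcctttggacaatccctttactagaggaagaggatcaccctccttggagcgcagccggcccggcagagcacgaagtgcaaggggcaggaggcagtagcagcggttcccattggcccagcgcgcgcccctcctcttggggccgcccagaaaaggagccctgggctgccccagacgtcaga
These letters are a description of the window and not of binding. Only exact copies within the 250 bases were searched, so sites farther away or with mismatches would be missed. Control of these genes by PPARα was not tested.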

How the data were processed

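The methods describe total RNA taken from rat disc, from which cDNA libraries of mRNA were made and sequenced. The authors deposited the count of reads on each gene without normalization. The submitters' processing notes name FastQC, Trimmomatic, HISAT2, featureCounts and DESeq2 without versions, and the mouse build mm10, whereas the table holds rat Ensembl genes. Columns were matched to samples by name. The 8 genes and the gene lists were chosen with earlier results of these data known. Named genes are the 8, ketone body genes, each list's genes passing the test or else its largest change, each marker list's most abundant gene and those near 0, and the nearest profiles; some of these are not reported here. Counts were fitted in edgeR 4.0.16 (R 4.3.3) by the quasi-likelihood test, with trimmed mean of M-values scaling, filterByExpr (minimum count 10) and Benjamini-Hochberg adjustment over all genes tested. CPM used the library size over the genes kept by the filter, log2 CPM a prior count of 2, and 3 reads, the floor taken as measured, were 0.154 to 0.193 CPM (counting error only). DESeq2 1.42.0, limma 3.58.1, other scalings and filters, a replicate block and each library left out were alternatives. Fits were tested on simulated data.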

Additional observations from a re-analysis of the deposited data

How the results depend on the processing

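Keeping the 6 libraries apart gave 1233 genes higher and 1494 lower, 1 of the 8 genes and 3 of the listed oxidation genes, against 175, 400, 0 and 1 over the distinct samples. DESeq2 gave 1132, 1440, 1 and 3. Without a filter on low counts 0 listed genes passed, and 0 with an absolute log2 fold change above 1 also required. The replicate block, fitted on the 6 libraries kept apart, gave 307 genes higher and 434 lower, 0 of the 8 genes and 1 listed gene. Deviations of same-numbered libraries from their group means had Pearson r of -0.33, -0.28 and -0.08 across genes, which are not independent replicates. Since PBS replicates 2 and 3 were nearly alike, these values cannot decide whether the numbers pair animals. The main fit assumed no pairing.

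Leaving out each library in turn gave 0 to 170 genes higher, 0 to 396 lower and 0 to 1 listed genes, with 0 of the 8 genes each time, and a median log2 fold change of the 8 genes of 0.0281 to 0.247. The lowest median came without AF-PTK@LEV@SPP1 replicate 2. Without PBS replicate 1 the counts were 65 and 215, with the lone PBS sample assumed to vary like the others, without AF-PTK@LEV@SPP1 replicate 1 they were 30 and 83, and without AF-PTK@LEV@SPP1 replicate 2 or 3 both were 0.

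Some log2 fold changes changed sign, for Hadha, Hadhb and Acadl from values near 0 and for Cpt1b from 0.91. Hadha was -0.0112 with DESeq2's size factors in edgeR, -0.0351 without the filter and -0.0110 in DESeq2, and ranged from -0.0601 to 0.0535 with a library left out, the lowest without AF-PTK@LEV@SPP1 replicate 2. Hadhb ranged from -0.0433 without AF-PTK@LEV@SPP1 replicate 2 to 0.153 without AF-PTK@LEV@SPP1 replicate 3. Cpt1b ranged from -0.0405 without AF-PTK@LEV@SPP1 replicate 2 to 1.25 without AF-PTK@LEV@SPP1 replicate 1, and Acadl from -0.124 without AF-PTK@LEV@SPP1 replicate 2 to 0.00272 without AF-PTK@LEV@SPP1 replicate 3. The cause of these changes was not tested. With 2 distinct PBS samples, and 34 to 108 reads of Ehhadh a library, small differences could not be resolved.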
